A study of Mus musculus with 2 samples.

Results

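Cluster 5 of the papain cDC2s is a group of type 2 conventional dendritic cells (cDC2s) that the authors' clustering of mRNA set apart in lymph nodes of mice immunized with papain. Its members were taken from the deposited labels: a cell belongs to it if its label gives mRNA cluster 5 of the papain library. It held 560 of 6190 labelled papain cDC2s, or 9.05% (95% exact Clopper-Pearson interval 8.34 to 9.79), among 11067 cells with expression values in the whole series. The paper describes 5 cDC2 subclusters that span naive and immunized mice. Its subcluster 5 holds mainly naive cells, so that number does not refer to the group described here. The series is CITEseq, in which mRNA and DNA-tagged antibodies are counted in the same droplets, of live MHCIIhi CD11c+ B220- cells sorted from lymph nodes of B6 mice. There was 1 library of unimmunized (naive) mice and 1 library taken 1 day after ovalbumin (OVA) plus papain, a protease allergen, had been given in both rear footpads. The methods give popliteal nodes as the source of the papain cells and a pool of skin-draining nodes as that of the naive cells, whereas the deposited protocol names popliteal nodes for both. If the methods hold, immunization and lymph node site cannot be told apart. With 1 library per condition there is no replicate, no test was made, and all intervals cover counting error only.

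Dendritic cells take up antigen in skin, move to the lymph node by following ligands of the chemokine receptor CCR7, and present peptides on MHC class II to T cells. cDC2s carry SIRPα (CD172a) and depend on the transcription factor IRF4. Those with the lectin CD301b, encoded by *Mgl2*, are a migratory subset known for priming type 2 helper T cells. In droplet sequencing, each captured mRNA molecule is counted by its unique molecular identifier (UMI), and the UMIs of a droplet depend on how much RNA its content holds, on how much of it is captured, and on whether it holds 1 cell or more.

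The feature that separated cluster 5 from the other clusters was the amount counted per cell. Its cells had a median of 30020.5 UMIs (quartiles 26007.5 and 35104, range 15965 to 56723), against a median of 14245 (range 2682 to 32999) in the 5630 other labelled cells, a ratio of 2.11. The medians of the other 8 clusters ran from 7249 in cluster 8 to 18323 in cluster 1, so no other cluster came near it. All 560 cells lay above the median of the others, and 524 (93.6%) lay above their 95th percentile of 21663 UMIs. Of the 290 labelled cells with more than 30000 UMIs, 281 were in cluster 5 and 9 elsewhere. In the reverse direction, 162 other cells reached the 10th percentile of cluster 5, 22862 UMIs, and 138 of them were in cluster 1.

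The antibody counts, which are read from a separate set of molecules and did not enter the mRNA clustering, were higher by nearly the same factor. A cluster 5 cell had a median of 7715.5 antibody counts (quartiles 6325.75 and 9529.5), against 3533.5 in the other cells, a ratio of 2.18. Per 1000 UMIs the medians were 251 and 245 antibody counts, so the relation of antibody to mRNA was close to that of the other cells. The mean count of each of the 12 antibodies was between 2.13 and 6.01 times that of the other cells. The smallest ratio was that of MHC class II and the largest that of XCR1, whose counts were low in most cells (median 1 against 0). The mean XCR1 count in cluster 5 was 7.54, above its upper quartile of 3, so a minority of cells with high counts raised it. For CD103 too, the mean of 8.05 lay above the upper quartile of 5. Cluster 5 cells had a median of 4966 detected genes, against 3251. When every cell was thinned to the same 8856 UMIs (the 10th percentile over labelled cells, which left out 619 shallower cells, none of them in cluster 5), the medians were 2653 and 2505 genes, a ratio of 1.06. The median share of UMIs on mitochondrial genes was 2.34% against 2.80%, and that on ribosomal protein genes 9.46% against 9.51%. Whether a cluster 5 droplet held 1 cell with more RNA and more surface protein or more than 1 cell was not tested. Doublets were gated out by forward scatter before the sort, according to the study's gating notes, a step that precedes the loading of cells into droplets.

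**Figure D1:**
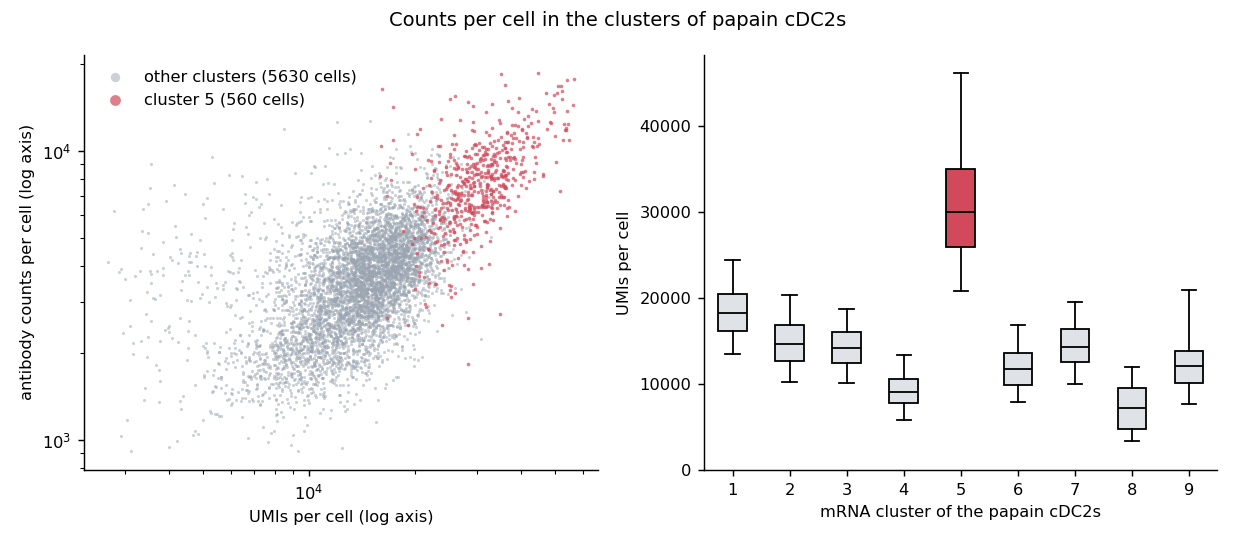
Left, UMIs against antibody counts for each labelled papain cDC2 (both log axes), with the 560 cells of cluster 5 in red and the 5630 other cells in grey. Right, UMIs per cell in each mRNA cluster (box, quartiles with median; whiskers, 5th and 95th percentiles). Cluster 5 sits at the upper end of both measures, with a median of 30020.5 UMIs against 7249 to 18323 in the other clusters.

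The label cDC2 was checked against its markers. All 6190 labelled cells are classed as cDC2 by the authors from antibodies. *Sirpa*, which encodes SIRPα, was at 82.3 CPM (UMIs per 1000000 summed UMIs of the group) in cluster 5 and 67.3 CPM in the other cells. A *Sirpa* UMI was found in 80.4% and 46.2% of cells, shares that were not brought to equal depth. *Irf4* was at 77.7 and 72.0 CPM. Of the 7 cDC2 markers listed, 3 reached 10 CPM, with log2 ratios of 0.11 to 0.29. *Mgl2*, also listed, did not reach it and was lower in cluster 5 (0.515 CPM) than in the other cells. The CD172a antibody value had a median of 1.97 in cluster 5 and 1.91 in the others. It is no independent check, since the authors identified cDC2s by this antibody. A UMI of *Xcr1* or *Clec9a*, which mark type 1 conventional DCs, was found in 11 of 560 cells (1.96%), and after thinning in 0.554% of cells in cluster 5 and 0.579% in the others.

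Per UMI, cluster 5 was close to the average of the other cells when these were pooled. Because the clusters were made from these same mRNA values, the following comparison is a description and not a test. Of 7071 genes that reached 10 CPM in cluster 5 or in the other cells, 3 (0.0424%) were at least 1.5-fold higher in cluster 5 and 5 (0.0707%) at least 1.5-fold lower, and none of these had 50 CPM or more. These counts depended on the comparison: they were 16 and 36 with the other clusters weighted equally, and 286 and 125 against only the 162 other cells that reached the 10th percentile of the depth of cluster 5. By the same rule, 253 (cluster 3) to 2466 (cluster 9) genes parted each other cluster from the rest. The summed UMIs differed, with 17459360 in cluster 5 and from 2327592 (cluster 8) to 26558120 (cluster 1) in the others. Counting error in the clusters with few UMIs adds to such counts and to the range of levels given below. Over the genes with at least 50 CPM, the median size of the log2 ratio was 0.072 in cluster 5, against 0.138 to 0.426 in the other clusters. With a lower limit, chosen after seeing the data, 121 genes (1.71%) were at least 25% higher and 26 (0.368%) at least 20% lower. The median log2 ratio of all 7071 genes was 0.05. The level in cluster 5 lay within the range of the other 8 clusters for 6961 of 7071 genes (98.4%), a share that ran from 48.4% to 88.9% for the other clusters.

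**Figure D2:**
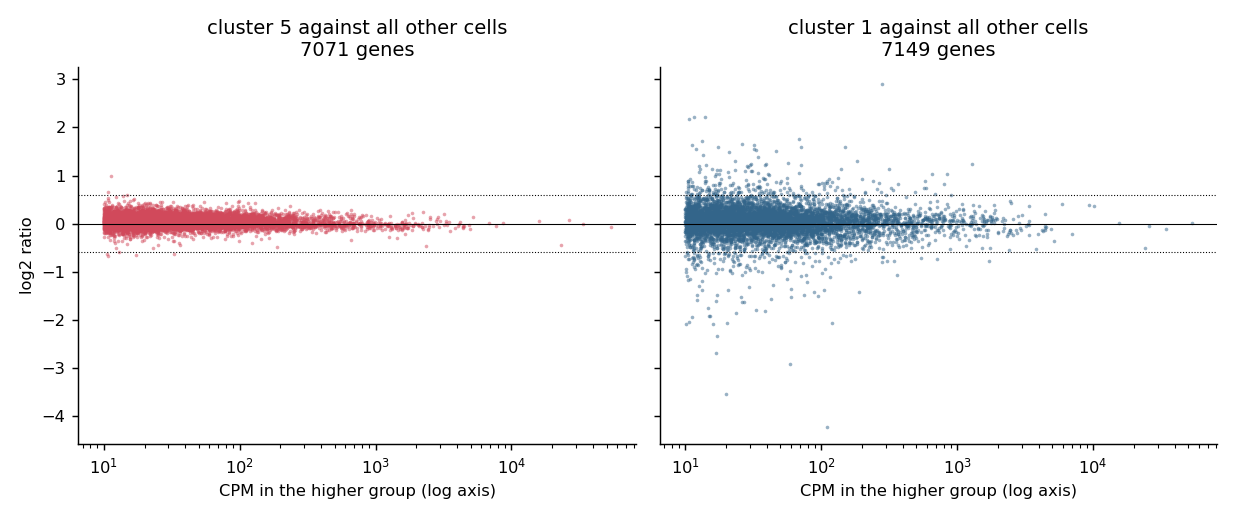
Each point is a gene that reached 10 CPM in either group: its CPM in the higher one (log axis) against its log2 ratio, for cluster 5 against all other labelled papain cDC2s (left, 7071 genes) and for cluster 1 against all others (right, 7149 genes); dotted lines mark 1.5-fold. In cluster 5, 8 genes lie beyond the lines, and in cluster 1, 415.

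The 3 genes higher by 1.5-fold were *Ets1*, a transcription factor of lymphocytes, *Dusp10*, a phosphatase of MAP kinases, and *Src*, a tyrosine kinase. The level of *Ets1* was 11.3 CPM, and 5.19 CPM in the other cells (log2 ratio 0.99, with a 95% interval from 0.87 to 1.37, computed without the pseudocount of 1 CPM that the ratio itself carries). Its UMIs were found in 11.4% of cluster 5 cells. Cluster 5 was not the highest cluster for *Ets1*, which was at 31.1 CPM in cluster 9. *Dusp10* was at 10.8 against 6.45 CPM and *Src* at 14.8 against 9.40 CPM. T cell transcripts were also looked up, and their part in these ratios was not tested. A UMI of *Cd3e* or *Trac*, which encode parts of the T cell receptor complex, was found in 53 of 560 cluster 5 cells (9.46%, 7.17 to 12.2) and in 3.45% of the others. After thinning the shares were 4.43% and 2.27%, and 2 or more such UMIs were found in 24 cells (4.29%) against 0.622%. Without the cells that had such a UMI, the log2 ratio was 0.35 for *Ets1*, 0.21 for *Dusp10* and 0.58 for *Src*.

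Markers of other cell types behaved differently from each other. The summed level of the 14 listed T cell markers was 177 CPM in cluster 5, 155 CPM in the other cells and 98.4 to 409 CPM over the other clusters. Only 2 of the 14 were counted, and both had log2 ratios below 0 (-0.10 and -0.02). Listed genes of the T cell receptor complex that were not counted went the other way. *Cd3e* and *Trac* together were at 7.79 CPM in cluster 5 and 4.06 CPM in the other cells. *Trbc2* was at 10.9 against 2.82 CPM by the mean of CPM over single cells (log2 ratio 1.64). For B cells, *Cd79a* or *Cd79b* was found in 3.39% of cluster 5 cells and 3.41% of the others, and after thinning in 1.46% and 2.05%. For Langerhans cells, *Cd207* or *Epcam* was found in 13.2% and 4.42%, and after thinning in 4.67% and 3.13%. The summed level of the 6 listed Langerhans cell markers was 285 against 278 CPM, and the 2 counted members had log2 ratios of -0.05 and 0.26. Of the monocyte and macrophage list, 3 of 16 members were counted and all 3 had log2 ratios below 0, from -0.67 to -0.22, while the summed level of the list was 71.8 against 74.7 CPM and the median log2 ratio of those 3 was 1.11 against cluster 2 and 1.35 against cluster 3. The summed levels of the lists in cluster 5 and the other cells were 17.2 and 15.3 CPM for B cells, 52.9 and 54.8 CPM for NK and innate lymphoid cells, 2.86 and 1.90 CPM for mast cells and basophils, and 0.115 and 0.149 CPM for the 1 neutrophil marker of 8 that is listed in the files. The part of transcripts of other cell types in the differences was not tested.

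The 5 genes lower by 1.5-fold were *Dkk2*, *Clec7a*, *Kctd14*, *Gm17056* and *Plac8*. *Clec7a*, which encodes the fungal glucan receptor Dectin-1, was at 20.8 CPM in cluster 5 and 32.9 CPM in the others, a log2 ratio of -0.64 (interval -0.82 to -0.50). It was at 165 CPM in cluster 4 and at most 39.6 CPM in the remaining clusters, so its higher mean in the other cells came largely from 1 cluster. *Plac8* was at 6.36 against 10.7 CPM, and at 92.2 CPM in cluster 9 but 6.48 CPM in cluster 1. Another comparison used only the 162 deepest other cells, those at or above the 10th percentile of cluster 5, mostly of cluster 1. Against them, *Clec7a* and *Plac8* were lower still, whereas *Dkk2*, *Kctd14* and *Gm17056* were higher in cluster 5 (log2 ratios of 0.52, 0.34 and 0.20). Depth was not made equal by this choice, since only 9 other cells lay above the median depth of cluster 5. *Dkk2*, which encodes an inhibitor of Wnt signalling, was at 8.19 against 12.9 CPM, with 52.4 CPM in cluster 7 and 39.7 CPM in cluster 4. The other clusters were also averaged in the proportions in which single cells of cluster 5 resembled them. None of the 5 then passed 1.5-fold, while *Ets1* and *Dusp10* did, together with *Asprv1*, *Ly6e* and *Satb1* (17.7, 12.6 and 13.9 CPM in cluster 5). These proportions were taken from the same UMIs of cluster 5, so a closer match is built in and this tests nothing.

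Among genes with at least 50 CPM, *Sod3*, an extracellular superoxide dismutase, had the highest ratio in cluster 5. It was at 99.5 CPM against 71.7 CPM, a log2 ratio of 0.47 (0.39 to 0.55), but at 151 CPM in cluster 1 and 12.9 CPM in cluster 2. The same held for the chemokine gene *Ccl6* (54.6 against 39.7 CPM, with 68.9 CPM in cluster 1 and 14.7 CPM in cluster 2), for the epithelial transcription factor gene *Ehf* (130 against 96.9 CPM, with 183 and 50.6 CPM), and for *Csf1*, a growth factor of macrophages (87.4 against 67.9 CPM, with 106 and 34.9 CPM). For each of these 4 genes, cluster 5 stood below cluster 1 and above cluster 2. *Mki67*, a marker of cycling cells, was at 116 against 86.4 CPM (log2 ratio 0.42, interval 0.35 to 0.49), below the 131 CPM of cluster 1. The 15 counted cell cycle genes had a median log2 ratio of -0.01, and *Mki67* alone among them was at least 25% higher. *Dnase1l3*, a secreted DNase, was at 234 against 181 CPM, *Ptgs2*, which encodes cyclooxygenase 2, at 98.0 against 76.3 CPM, and the immediate early gene *Egr1* at 193 against 153 CPM. The other genes among the 15 highest were *Rps12-ps19*, *Itpripl2*, *Gvin1*, *Znfx1*, *Grn*, *Nup62* and *Smarca4*, with log2 ratios between 0.33 and 0.45. *Smarca4*, a chromatin remodelling ATPase, was the one of these 7 that was higher in cluster 5, at 73.1 CPM, than in each of the other 8 clusters, at 45.3 to 66.2 CPM.

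At the low end stood the mitochondrial ribosomal RNAs. *mt-Rnr2* was at 17084 CPM in cluster 5 and 23165 CPM in the others, a log2 ratio of -0.44, and *mt-Rnr1* at 1698 and 2340 CPM, a log2 ratio of -0.46. *mt-Rnr1* was lower in cluster 5 than in every other cluster (1939 to 4154 CPM), whereas *mt-Rnr2* was at 16945 CPM in cluster 1. The tubulin gene *Tubb2b* was at 92.8 against 123 CPM, the stress-induced transcription factor gene *Atf3* at 114 against 143 CPM, the lipid-presenting *Cd1d1* at 62.5 against 78.2 CPM, and *Tnfrsf4*, which encodes OX40, at 134 against 164 CPM. The others of the 10 lowest were *Mir6236*, *2610528A11Rik* and *Gm24447*, with log2 ratios of -0.48, -0.36 and -0.29, and *H2-Ab1*.

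*H2-Ab1*, the beta chain of the MHC class II molecule I-A, was at 517 CPM in cluster 5 and 660 CPM in the other cells (log2 ratio -0.35, interval -0.38 to -0.32). This order depended on the cells compared: it was at 3149 CPM in cluster 4 and 1679 CPM in cluster 7, but at 426, 277 and 299 CPM in clusters 1, 2 and 3. Of the 14 counted class II presentation genes, 3 had ratios above 0 and 11 below, 3 of them by at least 20%, and their median log2 ratio was -0.08. Against clusters 1, 2 and 3 the same genes had medians of 0.16, 0.46 and 0.28.

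The genes of migration, costimulation and T cell attraction that were looked up in every case were neither 25% higher nor 20% lower in cluster 5. *Ccr7* was at 3327 CPM against 3195 CPM. On the scale of UMIs per cell, which holds the depth, it was at 104 against 45.7, and every cluster 5 cell had at least 3 *Ccr7* UMIs. *Cd40*, the receptor by which T cells license DCs, was at 801 against 708 CPM. The costimulatory ligands *Cd80* (67.2 against 65.9 CPM) and *Cd86* (258 against 253 CPM) had log2 ratios of 0.03 each, with intervals of -0.06 to 0.12 and -0.02 to 0.07. *Pdcd1lg2*, which encodes PD-L2, was at 18.3 against 15.8 CPM. The chemokine genes *Ccl22* (2234 against 1879 CPM) and *Ccl17* (816 against 735 CPM), whose products bind CCR4, had log2 ratios of 0.25 and 0.15. *Il4ra* was at 97.6 against 92.5 CPM and *Crlf2*, which encodes the receptor for TSLP, at 22.1 against 23.4 CPM.

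IL-2, a T cell growth factor that DCs can also make, shows what depth does to a share of cells. An *Il2* UMI was found in 12.1% of cluster 5 cells and in 5.83% of the other cells. Thinned to equal depth, the shares were 3.68% and 3.69%, and the level was 4.12 against 4.25 CPM (log2 ratio -0.03, interval -0.43 to 0.33). The same reading applies to *Il2ra*, which encodes CD25, with UMIs in 81.3% and 56.5% of cells but 135 against 126 CPM. *Mgl2* mRNA was at 0.515 CPM in cluster 5 and 1.00 CPM in the others, with a UMI in 1.43% and 0.693% of cells, although most cluster 5 cells carried the CD301b protein. *Itgam*, which encodes CD11b, was at 1.78 against 1.04 CPM.

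Across 28 lists of genes, the medians in cluster 5 lay near that of all genes (0.05), of which 4696 of 7071 had a ratio above 0. The highest was 0.11 for transcription factors of DC lineages, in which 22 of 25 counted members had ratios above 0 and 1 (*Ehf*) was at least 25% higher. Glycolysis and hypoxia genes had a median of 0.10, with 13 of 13 above 0 and none by 25% or more. Genes of the TSLP and IL-4 response had a median of 0.10 (14 of 16 above 0) and those of CD40 and NF-κB signalling 0.09 (24 of 30 above 0). Of the 26 interferon-stimulated genes, 21 were above 0 with a median of 0.07, and their median log2 ratio was -0.21 against cluster 1 and 0.64 against cluster 2. The lowest median was that of class II presentation.

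Cluster 5 was most alike clusters 1 and 3. Over log2 values of the 7071 genes, a description across genes, which are not independent, its summed profile had a Pearson r of 0.989 with cluster 1, 0.986 with cluster 3 and 0.980 with cluster 2. Clusters 1 and 2 had an r of 0.955 with each other, lower than that of either with cluster 5. Against cluster 1, 113 genes (1.57% of 7185) were at least 1.5-fold higher in cluster 5 and 55 (0.765%) lower. Against cluster 3 these were 356 (5.01% of 7100) and 29 (0.408%), and against cluster 2, a comparison added after seeing the data, 347 (4.86% of 7135) and 111 (1.56%).

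The genes at the head of these comparisons were those that separate the other clusters from each other. *Mucl1*, which encodes a small mucin-like protein, was at 279 CPM in cluster 1, 1.19 CPM in cluster 2, 4.59 CPM in cluster 3 and 107 CPM in cluster 5. *Khdc1a*, which encodes an RNA-binding protein with a KH domain, ran the other way, with 4.93 CPM in cluster 1, 231 CPM in cluster 2, 16.9 CPM in cluster 3 and 73.9 CPM in cluster 5. Cluster 5 thus had *Khdc1a* 12.6-fold above cluster 1 and *Mucl1* 19.2-fold above cluster 3, while neither gene was at its highest there. Against cluster 1, cluster 5 was also higher in *2610528A11Rik*, *Grasp* and the transcription factor genes *Sox4* (63.0 against 26.2 CPM) and *Tcf7* (52.1 against 22.9 CPM), and lower in *AA467197*, *Sod2*, the protease gene *Htra1* (32.8 against 69.3 CPM) and *Il1rn*, which encodes the IL-1 receptor antagonist (41.9 against 70.9 CPM). Against cluster 3, it was higher in *Dnase1l3*, *Gngt2* and the tetraspanin gene *Cd81* (98.4 against 41.6 CPM), and lower in *Upb1*, *Hist1h1c*, *Adm*, *Tnfsf9* (4-1BB ligand, 175 against 301 CPM) and *Il12b*, which encodes the p40 chain of IL-12 (40.3 against 83.9 CPM).

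Taking all genes that differ at least 2-fold between clusters 1 and 2, 67 were higher in cluster 1 (led by *Mucl1*, *Rac2* and *Htra1*) and 49 in cluster 2 (led by *Khdc1a*, *Crispld2* and *Tlx2*). For 115 of these 116 genes the level in cluster 5 lay between those of clusters 1 and 2. Because the genes were picked for differing between clusters 1 and 2, this describes cluster 5 and tests nothing. The same count was not made for the other clusters. In cluster 3, the summed level of each set of genes also lay between those of clusters 1 and 2. Each cell was then placed by the percentage of its UMIs of these genes that came from the cluster 1 set, a measure chosen after seeing the data. Cluster 5 had a median of 73.8% (quartiles 60.2 and 81.5), against 84.9% in cluster 1, 43.4% in cluster 2 and 80.3% in cluster 3. Between the upper quartile of cluster 2 (55.8%) and the lower quartile of cluster 1 (79.6%) lay 53.4% of cluster 5 cells, compared with 24.5% of cluster 1, 23.6% of cluster 2, 43.9% of cluster 3, 48.9% of cluster 4 and 40.8% of cluster 8. The shares of clusters 1 and 2 follow from the way these borders were set, and are no measure of how cluster 5 differs. A further 30.4% of cluster 5 cells lay at or above the cluster 1 quartile and 16.3% at or below that of cluster 2. The 10th and 90th percentiles of cluster 5 were 49.6% and 86.2%. The percentage rested on a median of 707.5 UMIs per cell in cluster 5, 473.5 in cluster 1 and 271 in cluster 2.

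**Figure D3:**
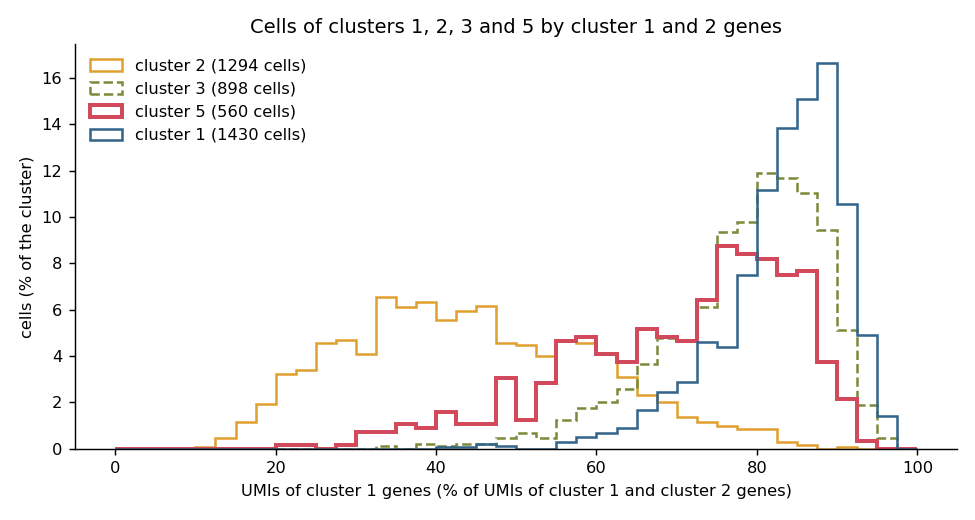
For each cell of clusters 1, 2, 3 and 5, the percentage of its UMIs of the 116 genes that part clusters 1 and 2 that belongs to the 67 cluster 1 genes (horizontal axis), as a percentage of the cells of the cluster (vertical axis). Cluster 5 (median 73.8%) lies between cluster 2 (43.4%) and cluster 1 (84.9%) and overlaps cluster 3 (80.3%).

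*Mucl1* and *Khdc1a*, which head the 2 sets, were found in the same cell more often in cluster 5 than in the other clusters, a comparison chosen after seeing the data. Of its 560 cells, 96 (17.1%) had a *Mucl1* UMI, 175 (31.3%) a *Khdc1a* UMI and 22 (3.93%, interval 2.48 to 5.89) had UMIs of both. In the other labelled cells 27 of 5630 (0.480%, 0.316 to 0.697) had both, of which 10 were in cluster 1 and 7 in cluster 2. With at least 2 UMIs of each gene, 11 cluster 5 cells (1.96%) and 2 other cells (0.0355%) had both. Part of this follows from depth, since more UMIs make any gene more likely to be seen: at 8856 UMIs per cell, the expected shares with both were 1.64% in cluster 5 and 0.251% in the other cells. The product of the shares of cells with each gene would be 30 cells in cluster 5 and 76.3 in the other cells, so the count of 22 was 0.733 of that product in cluster 5. The ratio of 0.354 in the other cells pools clusters that carry mainly 1 of the genes, and within single clusters it was 0.945 in cluster 1, 0.770 in cluster 2 and 1.51 in cluster 7, above that of cluster 5, on 10, 7 and 5 cells with both.

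**Figure D4:**
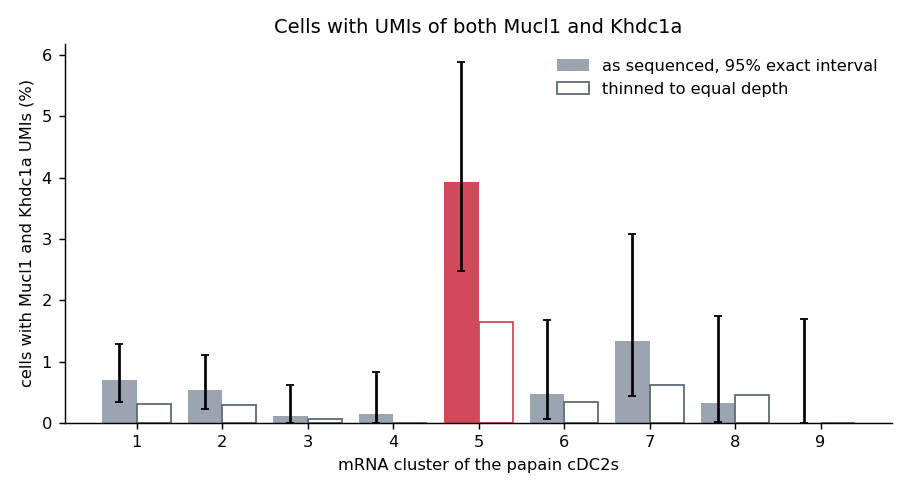
Percentage of the cells of each papain mRNA cluster with UMIs of both *Mucl1* and *Khdc1a*, as sequenced (filled bars, with 95% exact intervals for counting error) and after thinning each cell to 8856 UMIs (open bars, mean over all draws, no interval). Cluster 5 stands at 3.93% as sequenced and 1.64% after thinning, and no other cluster exceeds 1.33% and 0.617%.

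Single cells of cluster 5 differed in which other cluster they resembled. Each cell was assigned to the other cluster under whose summed profile its UMIs were most likely, an assignment added after seeing the data. By it, 221 of 560 cells (39.5%) were most alike cluster 1, 136 (24.3%) cluster 2, 101 (18.0%) cluster 3, 32 cluster 8, 26 cluster 7, 18 cluster 4, 17 cluster 6 and 9 cluster 9. For the other clusters, 69.1% (cluster 1) to 98.1% (cluster 9) of cells were assigned to their own. Those shares cannot be set against the ones of cluster 5, which was not among the choices, so that its cells had to be assigned elsewhere. The median UMIs of these subgroups ran from 23544 to 31941, each above the 7249 to 18323 of the clusters they resembled.

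The antibodies give a reading of these subgroups that was not used by the mRNA clustering. Each antibody is recognised by a tag of 15 bases, and shown here, as the authors list them and with no part marked, are the tags of the antibodies plotted for these subgroups and of a pair listed with the same tag.
CD301b: cttgccttgcgattt
CD11c: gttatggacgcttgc
CD8a: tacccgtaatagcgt
CD11b: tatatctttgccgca
CD24: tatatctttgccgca
CD11b and CD24 are listed with the same tag, so what parts these 2 antibodies cannot be told from the list. In cluster 5 the median of the count of CD24 over that of CD11b was 0.854 (0.824 in the other cells), and neither is interpreted further.

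Antibody values are on the authors' scale, the natural log of 1 plus the ratio of a count (with 1 added) to the geometric mean of the cell's 12 counts. The CD11c value had a median of 2.40 (quartiles 2.08 and 2.86) in the cluster 5 cells most alike cluster 1 and 2.01 (1.58 and 2.46) in those most alike cluster 2. In clusters 1 and 2 themselves it was 2.55 and 1.48, so the subgroups stood in the same order and closer together. CD8a had a median of 1.30 in the 26 cells most alike cluster 7, against 0.26 in those most alike cluster 1, and in clusters 7 and 1 themselves it was 1.16 and 0.21. CD301b had a median of 2.17 in the cells most alike cluster 2, 1.93 for cluster 1, 1.98 for cluster 3 and 1.13 for cluster 7, and in those clusters themselves 2.08, 1.88, 1.43 and 0.70. The subgroup most alike cluster 3 had a higher CD301b value than cluster 3 itself, with overlapping quartiles (1.42 to 2.39 against 0.88 to 2.04).

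**Figure D5:**
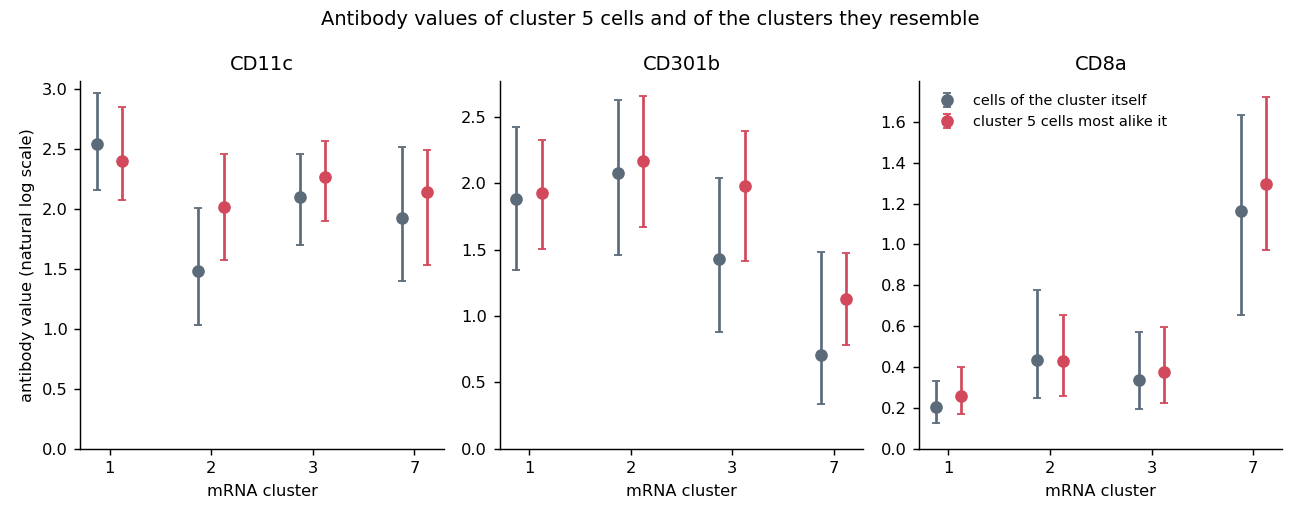
Median antibody values (points, with quartiles as bars, natural log scale) of CD11c, CD301b and CD8a for the cluster 5 cells most alike mRNA clusters 1, 2, 3 and 7 (red; 221, 136, 101 and 26 cells) and for the cells of those clusters (grey). The red points follow the order of the grey ones for CD8a, which is at 1.30 and 1.16 for cluster 7, and for CD11c and CD301b they span a narrower range.

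Most cells of cluster 5 were CD301bhi by the authors' antibody classes. These were 368 of 560 cells (65.7%, interval 61.6 to 69.6), with 156 (27.9%) CD301bint and 36 (6.43%) CD301blo cells, against 44.8% CD301bhi and 25.5% CD301blo in the other labelled cells. The share was close to that of cluster 2 (67.2%, 64.5 to 69.7) and cluster 1 (61.9%, 59.3 to 64.4), whose intervals overlap it, and above that of cluster 3 (40.4%, 37.2 to 43.7) and of clusters 4, 6, 7, 8 and 9 (7.45% to 50.6%). Seen from the classes, cluster 5 held 12.7% of CD301bhi, 8.54% of CD301bint and 2.45% of CD301blo papain cDC2s. The CD301b value had a median of 1.94 (quartiles 1.35 and 2.37) in cluster 5 and 1.51 in the others, a difference of 0.43. CD11c differed by 0.15 and MHC class II by -0.19, and the remaining 9 antibodies by between -0.03 and 0.07. For 8 of the 12 antibodies the median of cluster 5 lay between those of clusters 1 and 2, as for CD301b (1.88 in cluster 1 and 2.08 in cluster 2) and MHC class II (4.89, between 4.77 and 5.32). It lay outside them for CD172a (1.97 against 1.98 and 2.06), CD326 (0.456 against 0.379 and 0.429), CD103 (0.0751) and XCR1 (0.0514), and for the last pair it was below every other cluster (at least 0.0794 and 0.0578). Counts of this pair were low, with medians of 3 and 1 in cluster 5 and of 1 and 0 in the other cells. As a share of a cell's antibody counts the order was reversed, with medians of 0.0335% against 0.0277% for CD103 and 0.0172% against 0% for XCR1.

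Against the 2024 labelled naive cDC2s, which had a median of 14196 UMIs per cell, cluster 5 differed far more than from the other papain cells. Of 7421 genes, 743 (10.0%) were at least 1.5-fold higher and 640 (8.62%) lower. The highest was *Isg15*, an interferon-induced ubiquitin-like modifier, at 231 CPM against 40.1 CPM, followed by *Gvin1*, an interferon-induced GTPase gene, the fatty acid binding protein gene *Fabp4* (136 against 34.7 CPM), *Gm4070* and *Plat*, which encodes tissue plasminogen activator (78.8 against 22.4 CPM). *Isg15* and *Gvin1* were higher still in cluster 1, at 298 and 56.3 CPM. The lowest were the chemokine gene *Ccl4* (1.66 against 99.7 CPM), the lysozyme genes *Lyz1* (0.802 against 66.7 CPM) and *Lyz2* (18.3 against 622 CPM), *Retnla* and *Plbd1* (3.89 against 79.2 CPM). *Lyz1* and *Lyz2* are near-identical copies, so reads may be split between them. For each gene named here as highest or lowest, the other labelled papain cDC2s differed from the naive cells in the same direction. They had *Isg15* at 224 CPM, *Fabp4* at 129 CPM, *Plat* at 66.1 CPM, *Ccl4* at 4.26 CPM, *Lyz2* at 25.3 CPM and *Plbd1* at 4.12 CPM. These differences were thus not particular to cluster 5. *Mgl2* was at 44.9 CPM in the naive cells, against 0.515 CPM in cluster 5. *Cd40* was at 377 CPM in the naive cells and 801 CPM in cluster 5, *H2-Ab1* at 2258 and 517 CPM, and *Il2ra* at 58.8 and 135 CPM. The naive clusters are numbered separately, so naive cluster 5 is not a counterpart. The naive profile most alike cluster 5 was naive cluster 1 (r = 0.970).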

How the data were processed

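The authors deposited, for each cell, log2 values of CPM plus 1, natural log (ln) values of 12 antibodies, antibody totals as counts, and their own classes and mRNA clusters. Their processing notes name Cell Ranger 3.0.1, Partek and mm10, and their file header gives clusters made in each library separately at a resolution of 1. The study's gating notes describe removal of doublets by forward scatter before sorting. A later filter on droplets that held more than 1 cell is not given in the sources used here, none was applied here, and no doublet caller was run. UMIs were recovered from the log2 values (100% of values up to 50 UMIs were whole within 0.02), and antibody counts from the ln values. The libraries had medians of 13764 (naive) and 14738 (papain) UMIs per cell, and share 2 barcodes.

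UMIs were summed per group and divided by all UMIs of the group. Ratios carry a pseudocount of 1 CPM. A gene was counted if either group reached 10 CPM. Named were the 15 highest and 10 lowest genes with at least 50 CPM, 5 each way against the 2 most alike clusters and the naive cells, up to 4 per list, and 17 set genes. The members, lists and tests were chosen with earlier results of these data known. Shares have 95% Clopper-Pearson intervals, and ratios have 95% conditional binomial intervals. The thinned shares are expected values over all draws. The scripts were checked on simulated data. Python 3.11.15, numpy 2.4.6, scipy 1.17.1 and pandas 2.3.3 were used.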

Additional observations from a re-analysis of the deposited data

How the results depend on the processing

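No paired analysis was possible because each condition has 1 library and the labels give no replicate numbers. The count of genes at least 1.5-fold higher in cluster 5 (3) was the same with the filter on cells (500 genes, under 10% mitochondrial UMIs), and 2 after scaling to the median ratio, which is 0.05 on the log2 scale. It was 0 with a pseudocount of 10 CPM or a minimum of 50 CPM, 91 with no minimum, 8 with the mean over cells, 1 (*Tgtp1*) without cells with a *Cd3e* or *Trac* UMI, 35 without the deepest 5% of cells (which left 259 of 560 members) and 16 with the other clusters weighted equally. The count of lower genes (5) was 0 with a pseudocount of 10 CPM or a minimum of 50 CPM, 33 with no minimum and 36 with the clusters weighted equally. Chosen after seeing the data were the limit of 25% higher or 20% lower (121 and 26 genes), the weighting by likeness (5 and 0), and a comparison with only the 162 deepest other cells, mostly of cluster 1 (286 and 125). In that last comparison, *Dkk2*, *Kctd14* and *Gm17056* turned from lower to higher (log2 ratios of 0.52, 0.34 and 0.20). Of the 135 named genes, 123 to 135 kept their sign across the other pseudocount, the mean over cells, the scaling, the filters on cells and the equal weighting. With the weighting by likeness 127 did, and 89 against the 162 deepest other cells. The CD301bhi share was 60.6% without the deepest 5% of cells (44.8% in the others), and 47.1% against 32.0% when the top tertile of the CD301b value was used. With a pseudocount of 10 CPM, 437 genes were higher than in naive cells, in place of 743. Apart from the changes that follow from fewer genes or cells, the cause was not tested. Depth limits the counts of low genes such as *Il2*.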
